A study of Mus musculus with 16 samples.

Results

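Dihydrotestosterone (DHT), given for 24 h, changed which stretches of chromatin were called open in normal mouse prostate organoids, at genes that included the classical hormone targets Fkbp5, Zbtb16 and Tsc22d3. The comparison rests on 8 ATAC-seq libraries of the 16 in the series, namely all libraries labelled Control: 4 treated with 10 nM DHT and 4 with its solvent ethanol (EtOH). In ATAC-seq a transposase cuts accessible DNA, and a peak caller marks the stretches where cuts pile up. The remaining 8 libraries come from organoids mutant for SPOP (SPOPmut) and are used only where stated.

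Both Control groups were described as a control genotype and carried the label sgNT. The SPOPmut libraries carry sgNT too, and the labels do not say what it stands for. Both Control groups were treated in organoid medium from which mEGF, a mouse epidermal growth factor, had been left out. By the labels they differed in DHT alone. No strain or age is given, nor whether the 4 libraries of each group stem from different cultures or mice, so every p-value here measures only the spread between these libraries. Organoids are three-dimensional cultures grown from epithelial cells, without the stroma and circulation of the gland.

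DHT is the strongest natural ligand of the androgen receptor. The bound receptor leaves its chaperones, enters the nucleus and binds, as a dimer, to paired copies of a short sequence that also serves the glucocorticoid receptor. Most of its sites lie far from promoters, where it works together with factors such as FOXA1 and HOXB13. In the prostate the receptor drives the secretory programme of luminal cells, while basal cells, marked by p63 and keratin 5, hold less of it.

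Each library's peak list held between 57245 and 64521 peaks. The DHT lists held 60847, 58038, 63916 and 61256 peaks and the EtOH lists 64258, 57245, 64521 and 63184. The means were 61014 ± 2406 and 62302 ± 3421 (SD, n = 4 each), and their difference of -1288 did not pass an exact two-sided permutation test (p = 0.571; with 4 libraries against 4 the smallest possible p is 0.0286). Number of reads is not in the lists, so depth is unknown and list length stands in for it. EtOH library 2 had the shortest list of all, which bears on the counts of losses given below.

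Merging the peaks of these 8 lists wherever they shared 1 bp or more gave 74515 regions, against 86616 when all 16 lists are merged. A library calls a region when any of its peaks falls there. Libraries with the same treatment shared more of their regions than libraries with different treatments: the shared fraction of regions (called in both over called in either) was 0.834 to 0.889 within groups and 0.759 to 0.786 between them. The ranges did not overlap. All 8 libraries called 45952 regions (61.7%). A further 2407 regions were called in all 4 DHT libraries and in none of the 4 EtOH libraries, which is 3.23% of all regions, and these are named opened regions here. The reverse held for 1601 regions (2.15%), named closed regions. No test was made of a single region, because 4 libraries against 4 cannot pass a correction over so many.

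**Figure D1:**
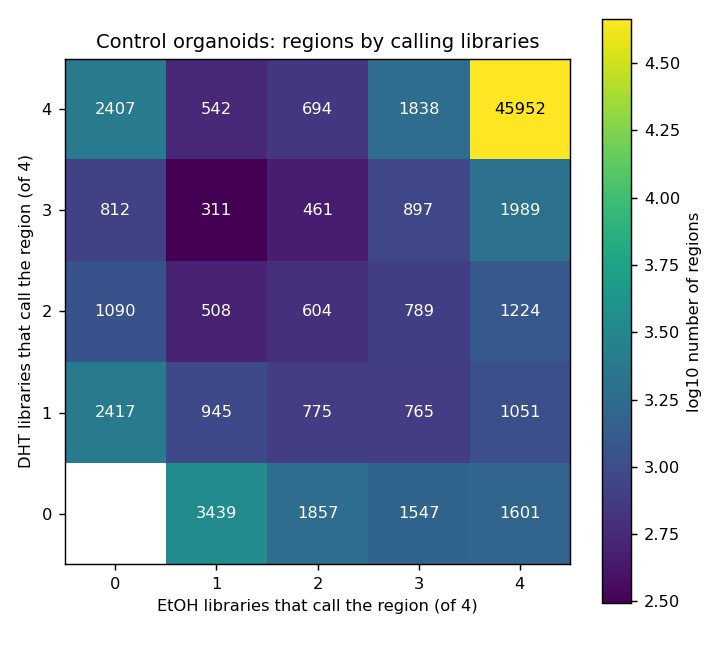
Number of merged regions for each combination of how many of the 4 DHT libraries (vertical axis) and how many of the 4 EtOH libraries (horizontal axis) call the region, coloured by log10 number. The top right cell holds the 45952 regions called in every library, the top left cell the 2407 opened regions and the bottom right cell the 1601 closed regions, each larger than the cells next to it.

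The count of losses moved with 1 library. Without EtOH library 2, 2773 regions were closed rather than 1601, while the opened count was 2422. When a region had to be called in at least 3 more libraries of a group than of the other, 3761 regions were higher with DHT and 4199 higher with EtOH, so that the excess of gains over losses did not hold under that wider definition.

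Few opened or closed regions lay at promoters. Only 33 opened regions (1.37%) overlapped a window from 250 bases before to 50 bases after an annotated gene start. For closed regions it was 21 (1.31%). The share was 20.1% for regions called in every library and 13.5% for all regions, which include those. Other regions called in only some libraries were not set apart, so the low share is not shown to be particular to opened regions. The median distance to the start of a protein-coding gene was 46.9 kb for opened regions, 56.2 kb for closed regions and 23.7 kb for regions called in every library. Inside the bodies of protein-coding genes lay 48.2% of opened and 42.7% of closed regions, compared with 53.5% of all regions, and 13.7% and 17.1% were more than 100 kb from any such gene. Opened regions were 507 bp wide at the median, closed regions 431 bp and regions called in every library 884 bp.

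The opened regions were also the stronger of the separated sets within their own lists. The authors' peak caller gives each peak a −log10 p, which was used only to rank the peaks of 1 list. The percentile of a region is the median of its ranks over the libraries that call it. By that rank an opened region stood at percentile 28.9 at the median and a closed region at percentile 17.9, where all regions stood at 38.7. In the upper part of the ranking, above the middle, were 477 opened regions (19.8%) and 13 closed regions (0.812%). Closed regions were thus almost all weak peaks. With each list cut to the length of the shortest, 2419 regions were opened and 1409 closed.

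Both sets were spread over the genome. Per chromosome, opened regions made up 2.66% (chromosome 14) to 4.22% (chromosome X) of the regions and closed regions 1.81% (chromosome 9) to 2.75% (chromosome 3). On chromosome Y none of 21 regions belonged to either set.

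The few promoters inside opened regions allowed a look at sequence. RefSeq promoter windows of build GRCm38.p6, the same assembly as mm10, were searched on both strands for ACANNNTGT, the spaced inverted repeat that androgen and glucocorticoid receptors recognise, which reads the same on either strand. Of 34 windows that opened regions overlapped, 9 (26.5%) held it, as did 2 of 21 windows in closed regions (9.52%), 459 of 12438 windows in regions called in every library (3.69%) and 2249 of all 32851 windows (6.85%). The 9 include 2 overlapping windows of H2-M9 that hold the same match. Below are the stretches around the match, up to 40 bases either side, for each gene whose match lies before its start, in capitals where the motif lies; they are shown because they are the promoters that were called with DHT only and hold the receptor's letters.
Orm3: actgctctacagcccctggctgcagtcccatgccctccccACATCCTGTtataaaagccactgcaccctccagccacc
Gm33945: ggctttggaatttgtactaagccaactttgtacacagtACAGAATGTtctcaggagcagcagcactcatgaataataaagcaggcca
Gm32833: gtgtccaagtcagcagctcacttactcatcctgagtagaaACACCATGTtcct
Gm20740: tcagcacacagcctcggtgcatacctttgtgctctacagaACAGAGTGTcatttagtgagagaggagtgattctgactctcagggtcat
Vmn2r117: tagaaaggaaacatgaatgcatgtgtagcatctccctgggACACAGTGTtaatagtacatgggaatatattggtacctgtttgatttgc
H2-M9: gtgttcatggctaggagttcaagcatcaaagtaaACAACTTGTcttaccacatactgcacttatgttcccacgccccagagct
Gm41835: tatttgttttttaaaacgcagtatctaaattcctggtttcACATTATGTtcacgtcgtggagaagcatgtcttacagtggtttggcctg

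Orm3 encodes an acute-phase plasma glycoprotein. Its stretch is chr4:63356080-63356157 on the plus strand, with the motif starting 38 bases before the annotated start, inside the opened region chr4:63355849-63356594. The −log10 p of that region was 3.76, 3.88, 3.89 and 4.07 in the 4 DHT libraries, and it was called in no EtOH library. The others are read from the minus strand. Gm33945 (chr10:21573924-21574010), Gm32833 (chr13:42403390-42403442), Gm20740 (chr15:63479729-63479817) and Gm41835 (chr19:33075129-33075217) are annotated as long non-coding RNAs. The strongest of these regions was the one at Gm32833, with −log10 p of 5.93, 5.88, 6.44 and 6.24, where the motif starts 13 bases before the RNA's start. Vmn2r117 (chr17:23479652-23479740), a vomeronasal receptor gene, and H2-M9 (chr17:36642831-36642913), a class I histocompatibility gene with overlapping windows, belong to families with near-identical copies. How reads were shared between copies is not given in the sources used here, so those 2 calls are uncertain.

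For comparison, the matches in promoters inside closed regions were at Sbk2, a kinase gene (chr7:4964456-4964544), and at Gm30970, a long non-coding RNA (chr14:79135237-79135325), both on the minus strand.
Sbk2: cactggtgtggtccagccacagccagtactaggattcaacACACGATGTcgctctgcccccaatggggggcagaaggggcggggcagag
Gm30970: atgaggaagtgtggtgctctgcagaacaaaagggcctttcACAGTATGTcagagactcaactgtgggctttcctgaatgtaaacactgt

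Other motifs were counted in the same windows. The forkhead motif TGTTTAC, whose first letters can overlap the end of ACANNNTGT, was in 5 of 34 windows of opened regions (14.7%), in 3 of 21 of closed regions (14.3%) and in 3.65% of all windows. TGANTCA, bound by AP-1, was in 5 of 34 (14.7%) and 5 of 21 (23.8%), against 7.81% of all. GGGCGGG, which Sp and Klf factors bind and which marks GC-rich promoters, was in 2 of 34 windows of opened regions (5.88%) and in 48.6% of windows in regions called in every library. With so few windows these shares are descriptions, and a match of letters is not a measured binding site. The sequence of regions away from promoters was not analysed here.

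Regions were then given to the nearest protein-coding gene within 100 kb, which placed 68003 of them (91.3%), and the called regions of each gene were counted in each library. Of 10809 genes with at least 2 regions, 513 (4.75%) had more called regions with DHT and 465 (4.3%) had fewer, by limma's moderated test with Benjamini-Hochberg adjusted p under 0.05. The median change over all genes was 0. Changes were mostly small: 346 of the 978 calls rested on a change of 1 region or less. Of the 978, 383 were genes without any spread inside either group. For these the p-value is very small by construction and is not printed below. They stayed in the Benjamini-Hochberg adjustment, so they also bear on the adjusted p of every other gene. A fit with a least variance per gene is given in the last section. A rise of at least 3 regions was called at 54 genes and a fall of that size at 60. The called regions measure how much of a gene's surroundings passed the peak caller, not its transcript level.

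As for regions, the count of genes that fell followed EtOH library 2. Without that library 944 genes fell and 511 rose, so the share of rises among calls was 35.1% in place of 52.5%. Without DHT library 2 there were 307 falls and 498 rises. The count of rises stayed between 425 and 511 when any single library was left out.

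The 2078 opened regions that had a gene lay at 1659 genes, of which 1349 had a single one and 76 had 3 or more. The 1327 closed regions lay at 1149 genes, of which 1008 had a single one and 32 had 3 or more. Both kinds occurred at 243 genes, which is 14.6% of the genes with an opened region and 21.1% of those with a closed one.

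Among the classical hormone targets, Fkbp5 (gene 14229, chr17:28398753-28486149) encodes a co-chaperone of steroid receptors that the receptors themselves induce, in a feedback loop. Its called regions numbered 13, 13, 14 and 12 in the DHT libraries and 7, 6, 7 and 8 in the EtOH libraries. Every DHT library was above every EtOH library, and the rise of 6.0 ± 0.56 (SE) regions passed (limma, adjusted p = 6.41e-04). There were 4 opened regions: chr17:28424006-28425058, chr17:28434404-28434867 and chr17:28451510-28452444 inside the gene, 61.6, 51.5 and 34.2 kb after its start, and chr17:28487595-28488116, 1.71 kb before it. The first was by far the strongest, at percentile 91.6 of its lists, with −log10 p of 7.59, 7.35, 7.79 and 7.46 in the DHT libraries and no call in any EtOH library.

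Zbtb16 (gene 235320, chr9:48651797-48836225) encodes PLZF, a zinc finger repressor known as an androgen-induced gene in prostate cells. It went from 2, 1, 3 and 3 called regions with EtOH to 11, 8, 9 and 9 with DHT, a rise of 7.0 ± 0.76 (limma, adjusted p = 0.0016). The gene was nearly bare of calls in the solvent and had 5 opened regions, all within its body. The strongest was chr9:48723475-48724523 at percentile 93.2, followed by the 2163 bp wide region chr9:48735926-48738088 at percentile 80.3.

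Tsc22d3 (gene 14605, chrX:140539528-140600522) encodes GILZ, a leucine zipper protein best known as an early glucocorticoid-induced gene. It had 15, 15, 18 and 17 called regions with DHT and 12, 8, 10 and 9 with EtOH. The groups did not overlap, and the rise of 6.5 ± 1.1 passed (limma, adjusted p = 0.0153). Of its 4 opened regions 2 lay within the gene and 2 lay 22788 and 25954 bp outside its body. The strongest, chrX:140513239-140513909, was one of the outer pair, at percentile 67.6. Counting only regions inside the gene or up to 10 kb from it, the rise was 2.25 and did not pass (limma, adjusted p = 0.161). The call was also lost when the replicate number was added to the limma fit.

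**Figure D2:**
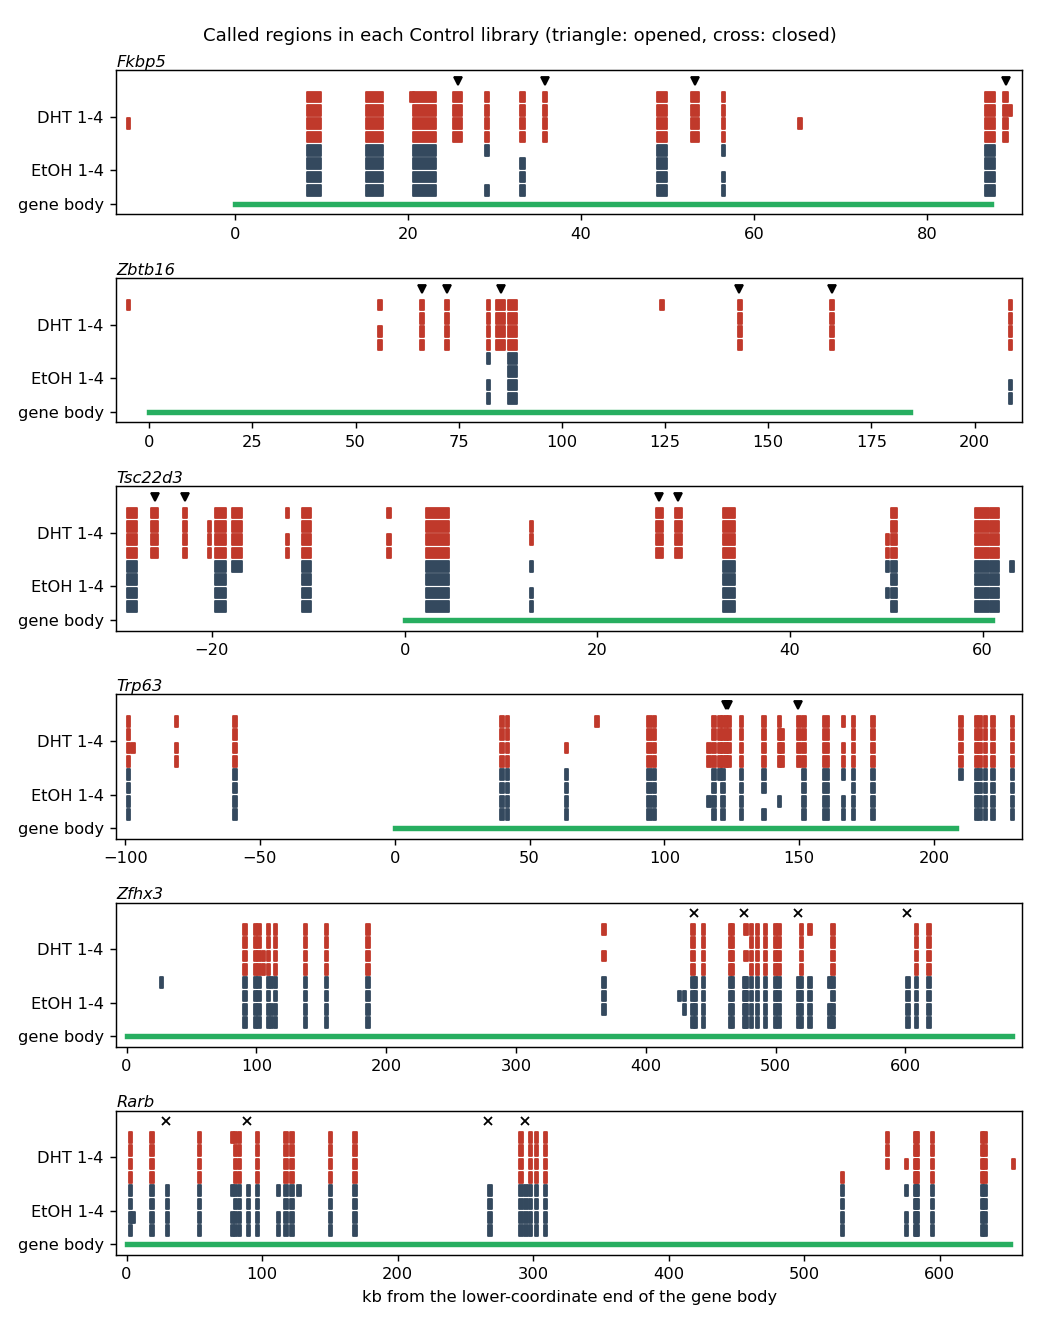
Called regions in each of the 8 Control libraries (rows, DHT in red, EtOH in blue, library 1 at the top of each block) along 6 genes, with position in kb from the lower-coordinate end of the gene body (green); regions narrower than the line are drawn at a minimum width. Triangles mark the opened regions, 4 at Fkbp5, 5 at Zbtb16, 4 at Tsc22d3 and 3 at Trp63, and crosses mark the 4 closed regions at Zfhx3 and the 4 at Rarb.

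Other members of the androgen response list, which holds 50 entries known as receptor targets, moved less. Of the 45 tested, 4 rose and 1 fell, against 4.75% and 4.3% of all genes, shares against which every list count below is to be read, with a median change of 0 as over all genes. Without EtOH library 2 it was 3 and 4. The fourth that rose was Sgk1, a hormone-induced kinase, with 20, 21, 22 and 20 called regions with DHT and 18, 18, 19 and 18 with EtOH (limma, adjusted p = 0.0347). The one that fell was Ank, a pyrophosphate transporter gene, with 14, 13, 14 and 15 against 18, 16, 17 and 16 (limma, adjusted p = 0.0411). Counted by region, 31 of the 552 regions at these genes were opened (5.62%) and 6 closed (1.09%), beside 3.23% and 2.15% of all regions. Of the 31, 13 lay at Fkbp5, Zbtb16 and Tsc22d3. At the 46 other genes 18 of 506 regions were opened (3.56%), near the share of all regions. There 6 were closed (1.19%), below the share of all regions. Several that did not pass as genes had opened regions, among them Zmiz1, a receptor co-activator gene, and B4galt1, a galactosyltransferase gene, with 3 each. The genes in this list were chosen with earlier results of these data known, as were all lists used here.

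Tmprss2 (gene 50528, chr16:97564682-97659541), the androgen-driven protease gene often fused to ERG in human prostate cancer, did not pass. It had 25, 26, 24 and 25 called regions with DHT and 23, 21, 24 and 23 with EtOH, so that the groups touched at 24 (change 2.25 ± 0.74, limma, adjusted p = 0.122). The result turned on the settings: the rise was 4.0 and passed without the weakest 20% of the peaks and with lists of equal length (limma, adjusted p = 0.00117 and 0.0041), it passed in a fit over all 16 libraries (0.014), and the change was 0 with regions within 25 kb only. It did have 1 opened region, chr16:97690758-97691459, 79.9 kb before its start, with −log10 p of 5.45, 5.16, 5.45 and 5.06 in the DHT libraries.

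Across the 24 tested nuclear receptor genes, 1 rose and 2 fell (1 and 5 without EtOH library 2), beside 4.75% and 4.3% of all genes, and the median change was -0.38 regions. At these genes 3 of 215 regions were opened (1.40%) and 9 closed (4.19%). Of the 3 retinoic acid receptor genes, Rara rose from 4 in every EtOH library to 5, 5, 6 and 5, Rarb fell, and Rarg had 7 in all 8 libraries. Esr1, the estrogen receptor alpha gene, fell from 18, 17, 19 and 17 to 14, 12, 14 and 14 (change -4.25, limma, adjusted p = 0.0113) and had 2 closed regions.

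Rarb (gene 218772, chr14:16430839-17082331) had 21, 20, 22 and 20 called regions with DHT and 28, 24, 28 and 27 with EtOH (change -6.0 ± 1.0, limma, adjusted p = 0.0166). The lowest EtOH library, library 2, still lay above every DHT library. All 4 of its closed regions were within the gene, and the strongest stood at percentile 34.0, well below the leading opened regions of Fkbp5 and Zbtb16.

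The chaperones that hold the unbound receptor form a short list of 15 tested genes, in which 2 rose and none fell by limma (at an unadjusted p under 0.05, 2 and 1). Besides Fkbp5 this was Stip1, which links Hsp70 to Hsp90, with 4, 3, 3 and 3 called regions against 2 in every EtOH library (limma, adjusted p = 0.0227). Of the 75 regions at these genes 6 were opened (8.0%), 4 of them at Fkbp5, and none closed. The main chaperone genes were flat: Hsp90aa1 had 5 called regions and Fkbp4, the counterpart of Fkbp5, had 3 in every library.

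Among receptor partners and co-regulators, 1 of 43 tested genes rose and 1 fell (1 and 4 without EtOH library 2), beside 4.75% and 4.3% of all genes. Kdm3a, a histone demethylase gene that acts as a receptor co-activator, had 4 called regions in every DHT library and 2 in every EtOH library. Zfhx3 (gene 11906, chr8:108279311-108961636), a homeodomain and zinc finger factor with tumour suppressor activity in the prostate, had the largest fall of all genes that passed. Its called regions numbered 24, 21, 24 and 22 with DHT and 31, 30, 31 and 30 with EtOH, a change of -7.75 ± 0.79 regions that passed (limma, adjusted p = 0.00109). Without the weakest 20% of the peaks the change was -5.75 and did not pass (limma, adjusted p = 0.116). Its 4 closed regions all lay within the gene, 1.84 to 165.6 kb after a start. The pioneer factor gene Foxa1 had 9, 10, 10 and 10 against 11, 10, 10 and 11 (limma, adjusted p = 0.331), and Hoxb13 6, 5, 5 and 6 against 5, 4, 5 and 5 (limma, adjusted p = 0.33). Neither passed, but Hoxb13 did without the weakest 20% of the peaks, with a rise of 1.75 (limma, adjusted p = 0.0323).

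The enzymes that make and break androgens gave 0 rises and 2 falls of 19 tested by limma (3 and 3 at an unadjusted p under 0.05). Hsd17b3, which makes testosterone, had 3, 2, 3 and 3 called regions against 4 in every EtOH library, and Akr1c18, a steroid-reducing enzyme gene, had 1 in every DHT library against 2, 2, 2 and 3 (limma, adjusted p = 0.0227 for both). Srd5a2, which turns testosterone into DHT, had 7, 7, 10 and 10 against 11, 9, 11 and 10, so that the groups overlapped and the gene did not pass (limma, adjusted p = 0.354). With lists of equal length it did (change -1.5, limma, adjusted p = 0.0179), and without the weakest 20% of the peaks the change was 0.25. It had 2 closed regions.

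Cell type markers were counted as well, but called regions at a marker do not tell which cells are present. The basal genes Krt5 and Krt14 had 4 and 5 called regions in every library of both groups. Markers of other cells were also called in every library, such as endothelial Vwf with 13 to 15 and stromal Fbln1 with 14 to 17. Of 25 basal genes tested, 1 rose and 1 fell, beside 4.75% and 4.3% of all genes. The one that rose was Trp63 (gene 22061, chr16:25683763-25892088), which encodes p63, the master factor of basal cells, from 23, 20, 22 and 21 called regions to 28, 26, 31 and 29 (change 7.0 ± 1.2, limma, adjusted p = 0.0158; 4.25 and 0.037 without the weakest 20% of the peaks). It had 3 opened regions in the middle part of the gene, of which chr16:25807175-25807608 was the strongest at percentile 52.6. The one that fell was the keratin gene Krt15, from 2 to 1 in every library. Summed over the basal list, the called regions ranged from 260 to 280 with DHT and from 248 to 287 with EtOH.

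Luminal genes gave 1 rise and 2 falls of 15 tested. Agr2, a disulfide isomerase gene of secretory cells, had 2 called regions in every DHT library against 1. Alcam, an adhesion molecule, had 4, 5, 4 and 4 against 7, 6, 7 and 6 (limma, adjusted p = 0.0133; 0.609 without the weakest 20% of the peaks) and the peptidase gene Dpp4 6, 5, 5 and 6 against 8, 7, 8 and 7 (limma, adjusted p = 0.0236). Krt8 had 1 in every DHT library and 2, 1, 2 and 1 with EtOH. The luminal sums ranged from 93 to 96 and from 86 to 107.

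Only 9 of the 20 genes of secretory prostate had enough regions to test, and none passed in either direction by limma (at an unadjusted p under 0.05, 2 rose and 0 fell). Fgl1, a secreted fibrinogen-like protein, came nearest by size, with 5, 3, 6 and 5 against 3, 3, 3 and 2 (limma, adjusted p = 0.119; 0.0168 without DHT library 2). By region 3 of 46 were opened and none closed. Of the proximal luminal progenitor markers 1 of 13 fell, the keratin gene Krt4, from 3 to 2 in every library. The largest change in that list, at the lipid flippase gene Atp10b, had overlapping groups (12, 9, 14 and 12 against 15, 14, 13 and 16) and passed with lists of equal length (change -4.25, limma, adjusted p = 0.00916).

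Marker lists of cells other than prostate epithelium were read by limma in the same way, beside rises at 4.75% and falls at 4.3% of all genes. In the stromal list 0 of 13 tested genes passed (at an unadjusted p under 0.05, 1 rose and 0 fell), in the immune list 0 of 5 (0 and 1) and in the neuroendocrine list 0 of 5 (0 and 0). The immune sums were 14 to 15 with DHT and 16 to 17 with EtOH, and 13 of the 18 immune entries had too few regions to test. The defining genes Cd14 and Cd68 were among those. Other immune genes were called in every library, Fcgr3 with 7 to 9 regions, Ptprc with 3 to 4 and Spi1 with 2. The endothelial list had 1 rise and 2 falls of 10 tested, beside 4.75% and 4.3% of all genes, and its difference from other lists was not tested. Cdh5, the endothelial cadherin, went from 6 in every EtOH library to 3, 2, 3 and 3 (change -3.25, limma, adjusted p = 1.64e-04; -0.5 and 0.361 without the weakest 20% of the peaks), Emcn from 2, 1, 1 and 1 to 0 in each, and the tight junction gene Cldn5 rose from 2, 1, 2 and 1 to 4, 3, 3 and 4. The endothelial sums of 53 to 59 with DHT and 56 to 61 with EtOH overlapped, and whether endothelial cells took part in these calls was not tested. Seminal vesicle and urothelial genes gave 1 rise of 7, the uroplakin gene Upk2 from 1 to 2.

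**Figure D3:**
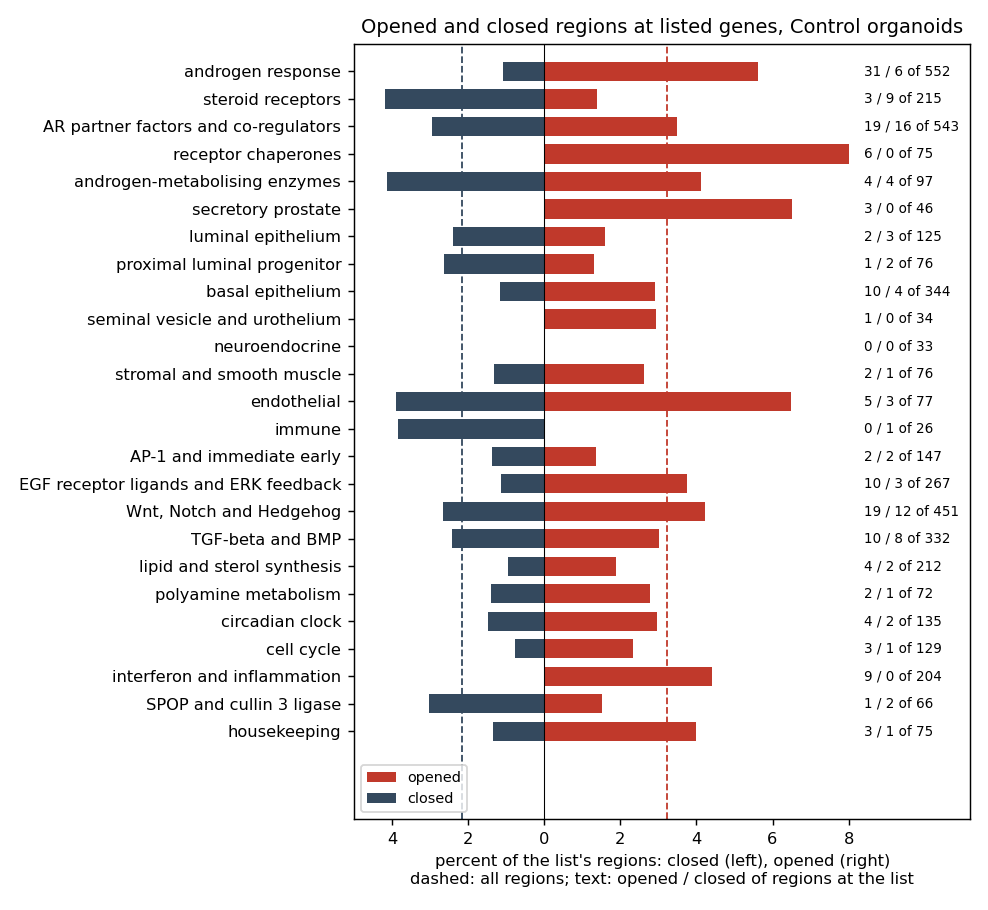
For each of the 25 gene lists, the percent of its regions that were opened (red, to the right) and closed (blue, to the left), with the counts at the right and dashed lines at the values for all regions, 3.23% and 2.15%. Receptor chaperones (8.0%), secretory prostate genes (6.52%), endothelial genes (6.49%) and the androgen response list (5.62%) reach furthest on the opened side; the first 3 of these rest on 75, 46 and 77 regions.

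Growth factor and signalling genes followed, and most of their members did not pass, as was so for all genes. Among EGF receptor ligands and ERK feedback genes, 1 of 23 rose and 0 fell (1 and 2 without EtOH library 2, and 2 and 4 at an unadjusted p under 0.05): Tgfa, an EGF receptor ligand, had 16, 16, 16 and 15 called regions against 13 in every EtOH library (change 2.75 ± 0.25, limma, adjusted p = 5.82e-04; 0.116 without the weakest 20% of the peaks). The organoids had been without mEGF in both groups. The AP-1 and immediate early genes gave 0 rises and 0 falls of 18 by limma (2 and 2 at an unadjusted p under 0.05). Within that list Egr2, an early growth response factor, had the largest change, with 3, 3, 3 and 4 against 5, 5, 8 and 5, and did not pass (limma, adjusted p = 0.114). It passed in 6 of the 20 other settings, such as without the weakest 20% of the peaks (change -1.5, limma, adjusted p = 0.0226), and the change was -0.25 with regions within 25 kb only.

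Wnt, Notch and Hedgehog genes gave 1 rise and 4 falls of 41 tested (1 and 6 without EtOH library 2), beside 4.75% and 4.3% of all genes. The ligand gene Wnt4 had 13 called regions in every DHT library and 11, 11, 11 and 10 with EtOH (limma, adjusted p = 0.0016). The Wnt receptor genes Fzd1 and Fzd7, the Wnt effector Tcf7 and the Notch ligand Jag1 fell, by 1.75, 1.75, 1 and 1.25 regions. Gli3, a Hedgehog effector, held 5 opened and 2 closed regions and did not pass, with 25, 21, 25 and 25 against 20, 20, 20 and 23 (limma, adjusted p = 0.169; 0.0483 without DHT library 2). TGF-beta and BMP genes gave 0 rises and 3 falls of 33 by limma (0 and 7 without EtOH library 2, and 2 and 8 at an unadjusted p under 0.05), beside the same shares of all genes. The ligand gene Tgfb2 went from 10, 9, 10 and 10 to 7, 6, 7 and 6 (change -3.25, limma, adjusted p = 0.00198), and Tgfb3 and the binding protein gene Ltbp2 fell by 1.25 and 1.5. Smad2, which carries the signal to the nucleus, had 11, 7, 11 and 10 against 15, 13, 14 and 12, without overlap, and did not pass after adjustment (limma, adjusted p = 0.114). It passed as a share of each library's called regions (limma, adjusted p = 0.0312), and the change was -1.0 with regions within 25 kb only.

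Metabolic, clock and cell cycle groups had 1 or 2 calls each. Elovl6, a fatty acid elongase gene, rose from 7 in every EtOH library to 9, 9, 11 and 11 (limma, adjusted p = 0.0221). That call was lost in 8 of the 20 other settings, with a rise of 0.25 without the weakest 20% of the peaks and adjusted p = 0.236 without EtOH library 4 by limma. In the same list of 32 lipid genes Cpt1a, the gate of mitochondrial fatty acid oxidation, fell from 5 to 4. Odc1, the first enzyme of polyamine synthesis and a known androgen target, fell from 11 in every EtOH library to 10, 9, 10 and 10 (limma, adjusted p = 0.023), the one call among 11 polyamine genes. It was lost in 11 of the 20 other settings, and the change was 0 with regions within 25 kb only. Among 16 clock genes Nfil3 rose, from 6, 7, 8 and 7 to 9 in every DHT library (limma, adjusted p = 0.0236), with 3 opened regions. This call was lost in 9 of the 20 other settings, with a change of 1.0 within 25 kb (limma, adjusted p = 0.198) and 0 inside the gene or up to 10 kb from it. Ccnd1, cyclin D1, fell from 10 to 8, 9, 9 and 9 and was the only call among 17 cell cycle genes. In the inflammation list, 2 of 21 rose and 0 fell (2 and 2 without EtOH library 2, and 2 and 3 at an unadjusted p under 0.05 by limma): Il1a, an interleukin gene, from 6 to 7, and Peli1, a ubiquitin ligase of innate signalling, from 6, 5, 5 and 6 to 9, 9, 10 and 10 (change 4.0 ± 0.39, limma, adjusted p = 9.07e-04).

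The SPOP and cullin 3 ligase list gave 0 calls in 14 genes by limma at adjusted p under 0.05 (at an unadjusted p under 0.05, 1 rose and 2 fell). Spop itself (gene 20747) had 8, 6, 7 and 7 called regions with DHT against 6 in every EtOH library, touching at 6 (limma, adjusted p = 0.189; 0.0468 without DHT library 2). Of 11 housekeeping genes 1 was called, Hprt, with 3 against 2 in every library, which shows the size of change that the test can call where replicates do not vary.

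Outside the lists, the largest changes were at genes not known mainly as androgen targets. Hsf2bp (gene 74377, chr17:31944769-32034895), whose product binds heat shock factor 2 and acts in meiotic recombination, had the largest rise of all that passed. It had 29, 28, 30 and 29 called regions with DHT and 19, 18, 19 and 20 with EtOH, a rise of 10.0 ± 0.58 (limma, adjusted p = 3.39e-05). The gap between the groups was several times the spread inside each. It had 6 opened regions, 5 in its body and 1 lying 9076 bp outside it, the strongest at percentile 59.5.

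Mkln1, a subunit gene of the CTLH ubiquitin ligase, had 16, 13, 16 and 15 against 10, 7, 8 and 10 (change 6.25 ± 1.0, limma, adjusted p = 0.0116; 3.75 and 0.0612 with regions within 25 kb only). The tyrosine kinase gene Fer had 21, 18, 21 and 20 against 16, 13, 15 and 15 (change 5.25 ± 0.92, limma, adjusted p = 0.018; 2.75 and 0.229 without the weakest 20% of the peaks), with 5 opened regions. 4933407O12Rik, a short gene of 1241 bp on chromosome 17, had 5 called regions in every DHT library and none in any EtOH library. Inside the gene or up to 10 kb from it the change was 1.0 and did not pass (limma, adjusted p = 0.229). All 3 of its opened regions lay beyond the gene, 15699 to 27248 bp away, so they are tied to it by nearness alone.

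The 8 largest falls were at genes of 238595 bp or longer. Inpp4b (gene 234515, chr8:81342266-82134312), a phosphatase gene that restrains PI3K signalling, had 7, 8, 10 and 9 called regions with DHT and 17, 14, 18 and 15 with EtOH (change -7.5 ± 1.1, limma, adjusted p = 0.00664; -3.25 and 0.0419 without the weakest 20% of the peaks). Syne1, which encodes the nuclear envelope protein nesprin 1, had 9, 7, 8 and 11 against 16, 12, 16 and 16 (change -6.25 ± 1.3, limma, adjusted p = 0.0274; -3.75 and 0.114 without the weakest 20% of the peaks). Smg6, a nuclease gene of nonsense-mediated decay, had 4, 4, 5 and 4 against 10, 8, 11 and 10 (change -5.5 ± 0.65, limma, adjusted p = 0.00254; -1.0 and 0.486 without the weakest 20% of the peaks). The adhesion gene Cadm2 had 4 in every DHT library against 10, 8, 8 and 10 (change -5.0 ± 0.56, limma, adjusted p = 0.0018; -2.75 and 0.0845 with regions within 25 kb only).

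The kinase gene Mast4 and the gene Mcc, named for its mutation in colorectal cancer, also fell, by 6.5 and 5.75 regions (limma, adjusted p = 0.0468 and 0.0214). Mast4 had 24, 25, 28 and 25 against 35, 29, 33 and 31 and held 3 closed and 1 opened region. At Mast4, Syne1 and Mcc the call was lost when any of several single libraries was left out, with adjusted p up to 0.13, 0.0836 and 0.062 by limma. Over all genes, those that fell had a median length of 37.1 kb, those that rose 30.9 kb and those not called 29.8 kb.

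**Figure D4:**
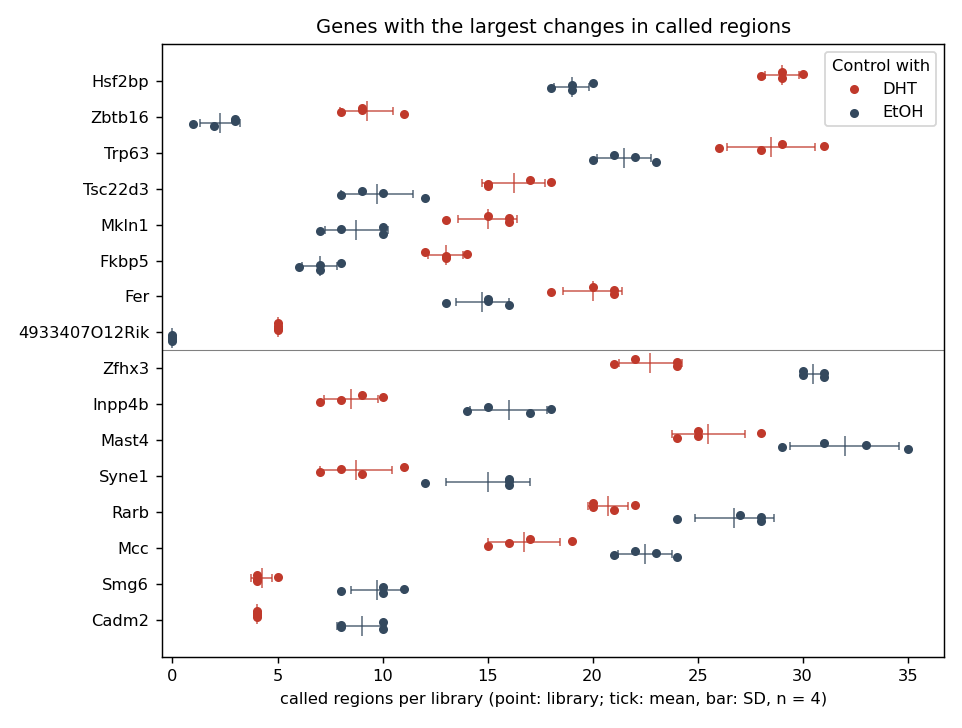
Called regions per library (points) with the group mean (tick) and SD (bar, n = 4) for the 8 genes with the largest rise (upper part) and the 8 with the largest fall (lower part), DHT in red and EtOH in blue. In each of the 16 genes the DHT libraries and the EtOH libraries do not overlap, from 28 to 30 against 18 to 20 at Hsf2bp to 4 against 8 to 10 at Cadm2; the genes were chosen for this difference.

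Some genes collected many separated regions without passing. Fggy, a carbohydrate kinase gene, had the most opened regions of any gene, 7, with 37, 35, 40 and 40 called regions against 32, 24, 31 and 31 (limma, adjusted p = 0.0687). Psd3, an exchange factor gene for ARF6, had 6 opened and 3 closed (limma, adjusted p = 0.0669). By contrast Smoc2, a matrix protein gene, and Sox6, a transcription factor gene, with 5 opened regions each, did pass, with rises of 4.25 and 3.75 (limma, adjusted p = 0.00464 and 0.0141). Adgrv1, an adhesion receptor gene, had the most closed regions, 5, and was not called (limma, adjusted p = 0.117), while Trim52 lost 4 of its 5, going from 5 in every EtOH library to 1 in every DHT library. Both Fggy and Adgrv1 had their lowest EtOH value in EtOH library 2.

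The strongest single opened regions were not all near known targets. The highest by rank, chr4:40886295-40887790, lay 33013 bp from Spink4, a peptidase inhibitor gene, at percentile 95.8, with −log10 p of 7.83, 7.86, 8.49 and 8.35 in the DHT libraries. The next, chr6:127297741-127298750 at percentile 94.1, had no protein-coding gene within 100 kb. Sult1d1, a sulfotransferase gene, held chr5:87562453-87563725 inside it at percentile 93.7, and Pdzd8 had chr19:59362698-59363487, 17.3 kb before its start, at percentile 92.3. Together with the Zbtb16 region named above, these went from no call in 4 EtOH libraries to a median percentile of 92.3 or higher over the DHT libraries.

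Closed regions reached no such rank. The strongest, chr3:101360012-101361476, lay 16.4 kb before the start of Igsf3, an immunoglobulin superfamily gene, at percentile 67.8, with −log10 p of 6.06, 5.36, 5.83 and 5.93 in the EtOH libraries. Those that followed were at Col28a1, a collagen gene (chr6:8198000-8198370, percentile 60.5), Mast4 (chr13:102942524-102943013, 60.4), Nsun7 (chr5:66278796-66279412, 58.2) and Inpp4b (chr8:81844039-81845371, 58.1).

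The SPOPmut libraries, which took no part in choosing these regions, gave a check in separate organoids. SPOP is the adaptor of a cullin 3 ubiquitin ligase. Of the 2407 regions opened in Control, 75.7, 72.7, 81.4 and 82.9% were called in the 4 SPOPmut libraries with DHT, and 15.4, 12.6, 16.7 and 13.0% in the 4 with EtOH. The means were 78.1 ± 4.80% and 14.4 ± 1.97%, and the groups did not overlap (exact two-sided permutation p = 0.0286, the smallest the design allows). Region by region, 1253 of the 2407 were again called in all 4 DHT and no EtOH library, 2 were called in fewer DHT than EtOH libraries and 367 were called in no SPOPmut library.

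Regions closed in Control were also called less often with DHT than with EtOH in SPOPmut. They were called at 29.6 ± 4.31% with DHT and 58.3 ± 3.04% with EtOH (exact two-sided permutation p = 0.0286). Only 209 of 1601 were again called in no DHT and all 4 EtOH libraries, and 528 were called in no SPOPmut library at all. Regions called in all 8 Control libraries were called at 91.9 ± 1.89% with DHT and 93.3 ± 1.15% with EtOH, a difference that did not pass (exact two-sided permutation p = 0.257).

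**Figure D5:**
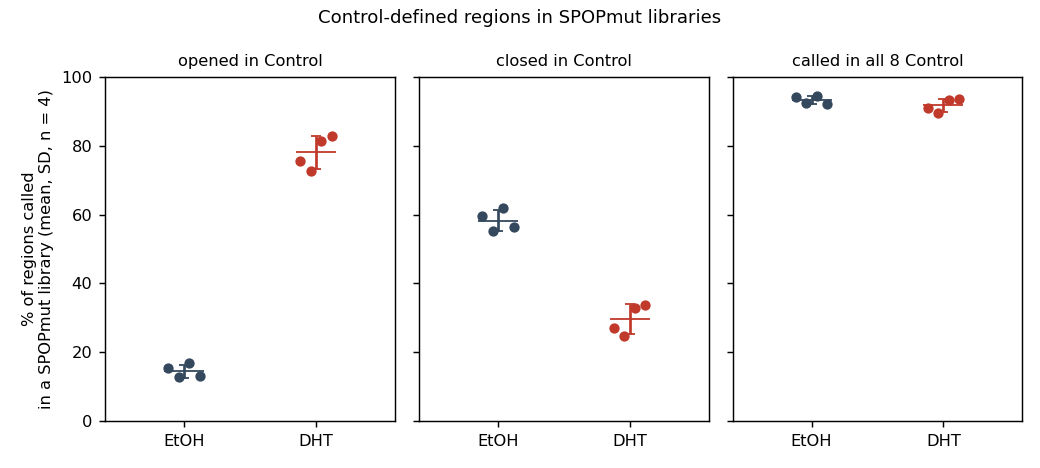
Percent of the regions opened in Control, closed in Control and called in all 8 Control libraries that were called in each SPOPmut library (points; mean and SD, n = 4). Opened regions were called at 72.7 to 82.9% with DHT and 12.6 to 16.7% with EtOH, closed regions at 24.8 to 33.7% and 55.2 to 61.9%, and regions called in every Control library above 89% in both groups.

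The leading genes were followed in the same way, and 15 of the 16 changed in the same direction in SPOPmut by their means, all 8 that rose and 7 of the 8 that fell. Zbtb16 had 10, 9, 11 and 11 called regions with DHT and 1, 1, 1 and 2 with EtOH in SPOPmut, and Fkbp5 16, 14, 14 and 15 against 8, 8, 8 and 9. At Hsf2bp the SPOPmut difference was 4.25 regions (25, 24, 26 and 26 against 22, 19, 23 and 20), beside 10 in Control. Cadm2 was the exception, with 1 called region in every SPOPmut library. At Mcc and Smg6 the SPOPmut groups touched, with 13, 12, 13 and 14 against 17, 16, 18 and 14 at Mcc. Smg6 had 2, 2, 3 and 3 against 4, 3, 4 and 3, a change of -1.0 beside -5.5 in Control. The share of all genes that changed in the same direction is not given here. The 16 leading genes were chosen on the Control libraries, whose differences are therefore the largest of many, and the difference between the genotypes was not tested here.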

How the data were processed

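Per the submitters' processing notes, the tools were Bowtie2 2.3.4.1, SAMtools 1.8 and Genrich (version not given in the sources used here) on build mm10 (GRCm38). The −log10 p of each peak was deposited by the authors in the peak lists and was used to order or filter the peaks of 1 library only. Read numbers are not in the lists, so depth and counting error are unknown. From them, regions were merged and called as described. Gene bodies came from RefSeq (GRCm38.p6); where several covered a region's midpoint the shortest was used. Called regions per gene were compared with limma 3.58.1 in R 4.3.3 (mean-variance trend, adjusted p under 0.05), and single values by exact permutation in Python 3.11.15. The limma fit was also run on simulated calls, drawn independently for each region at the same rate in every library. Those calls held no library differences and no pairing, so they cannot show the error rate in these data. Named are, per direction, the 8 called genes that changed most, the largest change in each of 25 lists (572 of 574 symbols matched, 454 tested), 12 fixed genes, and the 5 highest-ranked separated regions per direction; other genes are named because they passed within a list or for their many separated regions, after their values were seen. A few genes that the rule takes are not reported here. Members and lists were chosen with earlier results of these data known. A motif search in all regions needed a genome and was made in promoter windows instead. Pooled signal tracks were not used here.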

Additional observations from a re-analysis of the deposited data

Results flagged for a closer look

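In 4 groups of 4 libraries a single library differed from the others, which were exactly tied. At Syne1, EtOH library 2 had 12 called regions and the others 16 each. At Egr2, EtOH library 3 had 8 and the others 5 each. At Gli3, DHT library 2 had 21 and the others 25 each, and EtOH library 4 had 23 and the others 20 each. Dixon's ratio of gap to range is 1 by construction when the others are tied, so its usual rate, by which chance flags about 1 in 20 groups, does not apply to these counts, and they are given as values only. The check was made in 58 groups, for genes only where the range was at least 3 regions. Library 2 of either treatment had the shortest list of its group, and whether list length accounts for its low values at Syne1 and Gli3 was not tested.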

How the results depend on the processing

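Leaving out single libraries gave 2422 to 2772 opened and 1682 to 2773 closed regions, 425 to 511 genes with more and 307 to 944 with fewer called regions, and a difference in peaks per library of -2973 to -296. With called regions as shares of each library's total, 846 genes rose and 716 fell, and the median change of all genes moved by 0.0448. One fit over all 16 libraries gave 835 and 950. Raising the residual variance of each gene to at least that of 1 library differing by 1 region, chosen after seeing the data, gave 661 and 765, so that 46.4% of calls were rises in place of 52.5%, with 439 and 409 genes shared with the reported calls. Requiring at least 3 more libraries gave 3761 opened and 4199 closed regions. The cause of these shifts was not tested. The other settings kept both gene counts within 1.5 times, but without the weakest 20% of the peaks only 204 of 483 rises and 88 of 368 falls were shared with the reported calls. With replicate number as a block (replicate block) 385 genes rose and 335 fell. The correlations of same-numbered libraries 1 to 4 were -0.039, 0.395, 0.215 and 0.0868. For numbers 2 and 3 the same-numbered library was the best match from either treatment. For number 4 it was so from EtOH only, and for number 1 from neither. Library 2 also had the shortest list in both SPOPmut groups (58800 and 60661 peaks). Whether the numbers pair samples is thus not settled, and the reported fit, without the block, may leave out a pairing. Of 24 called named genes 7 kept their call in all 20 settings: Fkbp5, Hsf2bp, Inpp4b, Peli1, Rarb, Trp63 and Zbtb16. With the replicate block, 7 of the 24 did not pass limma's test (adjusted p 0.0864 to 0.13): Tsc22d3, Mast4, Mcc, Alcam, Elovl6, Odc1 and Nfil3. Reversed were Srd5a2 (0.25) and Hprt (-0.75) without the weakest 20% of the peaks, and Trim24 within 25 kb (1.0) and within the gene body and 10 kb (0.25).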
